A study of Mus musculus with 16 samples.

Results

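The 7 protein-coding genes described here make the core of the microRNA pathway: Drosha, Dgcr8, Xpo5, Dicer1, Tarbp2, Ago1 and Ago2. They were chosen by measured values, because the peak at the end of Dicer1 followed WDR5 status in the embryonic stem cell (ESC) lists, and the other 6 were added as its pathway partners. The gene table holds 21887 protein-coding genes. All peaks inside a gene or within 20 kb of either of its ends on mm10 were taken as that gene's locus, and a peak within 1 kb of either end was taken as a gene end peak. The 7 loci held 282 of the 575501 peaks in 16 lists, which merged, on an overlap of at least 1 bp, into 54 of 163173 regions.

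Open chromatin had been profiled by ATAC-seq, in which a transposase inserts sequencing adapters into accessible DNA, in a mouse ESC line carrying a GFP knock-in at Rx, an eye field gene. Of the 16 peak lists, 12 came from ESCs kept in 2i+LIF, a medium that holds the naive pluripotent state, and 4 from embryoid bodies grown by the SFEBq method, a floating aggregate culture used to obtain neural and retinal tissue. Each of the 8 groups had 2 lists. All of the cells carried the Rx:GFP allele. The ESC groups were the parental line with both Wdr5 and p53 intact, the p53 knockout clones C9 and H9, which keep Wdr5, and cells lacking both Wdr5 and p53 that carried a stably transfected plasmid. That plasmid was an empty backbone, wild-type WDR5 (WDR5WT, human by the series title) or WDR5 with the S91K-Y191F substitutions. The embryoid body groups were parental, labelled day 4, and the double knockout (DKO) with no rescue plasmid named, for which the labels give no day. Each p53 knockout group is 1 clone. The labels do not say how many clones the double knockouts stand for or whether the 2 lists of a group are separate cultures. Every p-value below therefore comes from rearranging these lists between groups, each list taken as 1 unit, and speaks for these lists only. The 4 p53 knockout lists were taken as 4 units, though clones C9 and H9 gave 2 each. In bulk chromatin, fewer cells with an open site and a less open site per cell cannot be told apart.

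MicroRNAs are cut from long primary transcripts in the nucleus by the Microprocessor, formed by the RNase DROSHA and its RNA-binding partner DGCR8. Exportin-5, the product of Xpo5, carries the hairpin to the cytoplasm, where DICER1 and its partner TRBP, the product of Tarbp2, trim it to a duplex. An Argonaute protein, AGO1 or AGO2 among others, keeps 1 strand and is guided by it to target messenger RNAs, and AGO2 is the Argonaute with slicing activity. In ESCs this pathway is known to be needed for normal proliferation and for leaving the pluripotent state. WDR5 holds together the MLL family of enzymes, which methylate histone H3 at promoters.

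RefSeq promoter sequences on GRCm38.p6, running from 250 bases before to 50 bases after a start site, matched 6 of the 7 genes, all but Ago2. The 5 shown cover the start sites of the nuclear, export and dicing steps. Peaks whose presence differed between lists sit on them or next to them, and also at the start site of Ago1, which is not shown. Dicer1 lies at chr12:104751903-104752202 (minus strand), Drosha at chr15:12824565-12824864 (plus), Dgcr8 at chr16:18289119-18289418 (minus), Xpo5 at chr17:46202561-46202860 (plus) and Tarbp2 at chr15:102517942-102518241 (plus). Each is written 5′ to 3′ on the strand of the gene, and capitals mark the motifs searched on both strands.
Dicer1: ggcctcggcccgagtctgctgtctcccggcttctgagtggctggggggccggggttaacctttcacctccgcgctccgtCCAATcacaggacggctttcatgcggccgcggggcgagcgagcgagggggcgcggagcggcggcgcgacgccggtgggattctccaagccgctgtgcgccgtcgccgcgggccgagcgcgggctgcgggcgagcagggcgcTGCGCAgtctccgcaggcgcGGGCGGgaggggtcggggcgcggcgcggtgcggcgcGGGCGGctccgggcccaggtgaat
Drosha: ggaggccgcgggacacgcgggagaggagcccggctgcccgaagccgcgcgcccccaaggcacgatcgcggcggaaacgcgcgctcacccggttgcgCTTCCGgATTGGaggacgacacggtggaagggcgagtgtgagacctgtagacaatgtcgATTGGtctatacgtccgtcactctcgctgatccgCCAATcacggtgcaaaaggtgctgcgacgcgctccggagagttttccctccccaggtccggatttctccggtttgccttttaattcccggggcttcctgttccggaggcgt
Dgcr8: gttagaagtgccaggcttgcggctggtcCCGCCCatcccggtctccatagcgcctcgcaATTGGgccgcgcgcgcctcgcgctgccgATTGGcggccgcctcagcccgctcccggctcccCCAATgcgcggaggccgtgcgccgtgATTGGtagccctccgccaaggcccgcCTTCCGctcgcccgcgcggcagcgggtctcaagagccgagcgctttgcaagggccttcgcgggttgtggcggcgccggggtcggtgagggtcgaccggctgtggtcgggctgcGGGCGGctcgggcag
Xpo5: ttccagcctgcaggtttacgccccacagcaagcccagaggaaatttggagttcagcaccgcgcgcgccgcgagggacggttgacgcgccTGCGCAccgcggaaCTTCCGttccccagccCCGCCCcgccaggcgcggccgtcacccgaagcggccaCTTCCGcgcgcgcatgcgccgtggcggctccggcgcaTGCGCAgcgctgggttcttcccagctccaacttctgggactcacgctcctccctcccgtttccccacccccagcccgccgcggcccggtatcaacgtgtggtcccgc
Tarbp2: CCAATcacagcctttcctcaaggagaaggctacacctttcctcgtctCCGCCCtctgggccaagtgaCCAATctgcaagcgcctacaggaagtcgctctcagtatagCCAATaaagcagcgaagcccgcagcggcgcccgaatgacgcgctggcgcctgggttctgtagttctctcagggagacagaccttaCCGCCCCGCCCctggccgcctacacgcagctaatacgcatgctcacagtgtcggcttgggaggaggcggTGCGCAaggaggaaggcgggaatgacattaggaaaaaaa

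The letters searched were those of the E-box of MYC and USF (CACGTG, in 7.15% of 32851 promoters of this length), the GC box of SP and KLF factors (GGGCGG, 35.7%), the CCAAT box of NF-Y (37.4%), an ETS core (CGGAAG, 16.9%), part of the NRF1 site (TGCGCA, 7.76%), part of the YY1 site (GATGGC, 14.1%) and the TATA box (TATAAA, 13.6%). A match is a run of letters, not a site shown to be bound. The Dicer1 promoter held 2 GC boxes, 1 CCAAT box and 1 match to the NRF1 letters. Drosha held 3 CCAAT boxes and 1 ETS core, and Dgcr8 held 4 CCAAT boxes, 2 GC boxes and 1 ETS core. Xpo5 held 2 ETS cores, 2 matches to the NRF1 letters and 1 GC box. Tarbp2 held 3 GC boxes, of which a pair overlap, 3 CCAAT boxes and 1 match to the NRF1 letters. No window of the 6 genes held the E-box, the YY1 letters or the TATA box. The windows were rich in G and C. Dicer1 had 77.3% G and C, above 97.9% of all promoters, and 49 CpG against a median of 7. Dgcr8 had 74.3% and 43 CpG, Xpo5 71.3% and 40, Drosha 64.3% and 37, and Tarbp2, the lowest, 59.0% and 21. The median of all promoters was 52.7% G and C.

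List length differed widely between the groups and moved with the number of end peaks listed. The backbone lists held 1535 and 2492 peaks, the S91K-Y191F lists 5174 and 16257, and the parental ESC lists 24367 and 5330, while the 6 lists of C9, H9 and WDR5WT held 26305 to 32709 and the 4 embryoid body lists 75673 to 93646. The share of all protein-coding genes with an end peak followed, from 1.25% and 4.91% in backbone ESCs and 12.4% in parental replicate 2 to 54.9% in WDR5WT replicate 2 and 64.6% to 66.7% in embryoid bodies. The backbone, S91K-Y191F and parental lists also held wider peaks at their upper limit (18810 to 29214 bp) than the C9, H9 and WDR5WT lists (7727 to 15921 bp). The files give no read numbers, so depth is unknown, and the part of depth in these lengths was not tested. Of 10 ESC markers, 1 and 2 had an end peak in the backbone lists, 3 and 6 in S91K-Y191F, 8 and 4 in parental, and 7 or 8 in each C9, H9 and WDR5WT list. In embryoid bodies 9 and 9 of these had one in parental and 8 and 8 in DKO lists. Of 8 neural and eye field markers, 8 had one in both parental embryoid body lists and 6 in both DKO lists, but also 5 in both WDR5WT ESC lists. All 4 mesoderm and all 4 fibroblast markers had one in every embryoid body list, and 2 or 3 of 4 endoderm markers. Of 10 ubiquitous genes, 2 and 3 had one in backbone. These counts therefore do not tell the cell types apart. The deleted genes cannot be checked this way, since an open end says nothing about the coding sequence: an end peak was listed for Wdr5 in 5 lists (WDR5WT replicate 2 and all embryoid bodies) and for Trp53, the gene of p53, in 9.

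Dicer1 was the only one of the 7 genes to follow WDR5 status in every ESC list. It had an end peak in all 8 ESC lists with wild-type WDR5 and in none of the 4 without it. In embryoid bodies it did not follow WDR5 status, since all 4 lists held the peak, those of the DKO, which lacks Wdr5, included. None of the 7 genes had an end peak in either backbone list. Drosha had one in 14 of 16 lists, missing only from backbone. Dgcr8 was present in 13, missing also from parental replicate 2. Xpo5 was present in 11, missing from backbone, from both parental ESC lists and from S91K-Y191F replicate 1. Ago1 and Ago2 shared 1 pattern of 11 lists, missing from backbone, S91K-Y191F and parental replicate 2. Tarbp2 was present in 9 by this rule, missing also from both parental ESC lists and H9 replicate 1. The Dicer1 pattern is what chose the genes, so it is given as a description and without a test.

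**Figure D1:**
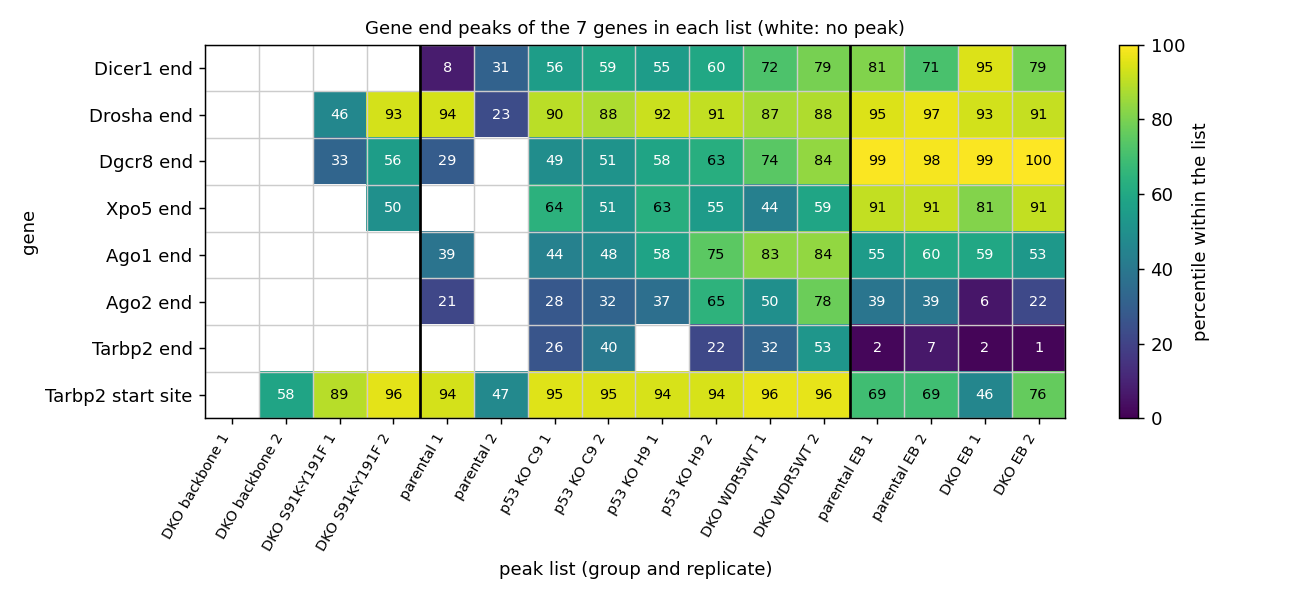
End peaks of the 7 genes, with the Tarbp2 start site added, in each of 16 lists (columns, by group and replicate). The number and colour give the percentile of the strongest such peak within its own list, by signal in ESCs and fold enrichment in embryoid bodies, and white means that no peak is listed. Dicer1 is empty in all 4 lists at the left, which lack wild-type WDR5, whereas Drosha is empty in the 2 backbone lists only.

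The nuclear step comes first. Drosha lies at chr15:12824804-12935291 on the plus strand and encodes the RNase of the Microprocessor. Its start site peak (region chr15:12824119-12825638) had an authors' signal of 338 and 1500 in S91K-Y191F, 1614 and 252 in parental, 1346 and 1299 in C9, 1828 and 1779 in H9, and 1428 and 1685 in WDR5WT ESCs, and no peak in backbone. S91K-Y191F replicate 2 and parental replicate 1 lay at the level of the knockout clones and their replicate partners far below, so the 2 lists of each of these groups lay further apart than any pair of C9, H9 and WDR5WT lists. How the authors scaled signals between lists is not given in the sources used here, so every order of signals between lists is a description of deposited values and shows no change by itself. Its percentile within a list was 87.0 or more in 8 of the 10 ESC lists that held it, and 46.2 and 23.2 in S91K-Y191F replicate 1 and parental replicate 2. Summits lay at -131 to -86 bp from the start site, inside the printed sequence. The gene 6030458C11Rik starts 124 bp away on the other strand, so the peak cannot be assigned to either gene alone. In embryoid bodies its fold enrichment over local background was 6.14 and 6.50 in parental and 5.38 and 5.60 in DKO lists. Both DKO values lay below both parental ones, and the share of all genes for which this holds was not counted.

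Dgcr8, whose product binds the primary transcript for DROSHA, lies at chr16:18253948-18289251 on the minus strand. The start site peak (chr16:18288858-18289770) had a signal of 285 and 500 in S91K-Y191F, 320 in parental replicate 1, 436 and 465 in C9, 584 and 662 in H9, and 929 and 1409 in WDR5WT. Both WDR5WT lists stood above every other ESC list, and the ranges of WDR5WT and of the 4 p53 knockout lists did not overlap. As percentiles within a list these were 74.4 and 83.8 against 49.0 to 62.8. The WDR5WT lists also had the highest median signal over all their peaks, 494 and 531 against 444 to 489 in C9 and H9. The share of all genes that separate in this way was not counted, so nothing particular to Dgcr8 is read from it. In embryoid bodies the same peak was among the strongest of each list, with a fold enrichment of 7.88 and 7.15 in parental and 7.27 and 8.73 in DKO, at percentiles 98.5 to 99.8. The locus held 3 regions in all, and the Ranbp1 and Trmt2a ends in its flank were open in 14 lists, the 2 backbone lists excepted.

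Xpo5, the exporter of the hairpin, lies at chr17:46202811-46243598 on the plus strand, and its start is 169 bp from that of Polh on the opposite strand, so this peak too is shared. The region chr17:46202313-46203472 had a signal of 452 in S91K-Y191F replicate 2, 602 and 464 in C9, 651 and 548 in H9, and 432 and 659 in WDR5WT, and was listed in neither parental ESC list. WDR5WT and p53 knockout values overlapped. Parental replicate 1 is a list of 24367 peaks and holds end peaks of 5 of the 7 genes, but none at Xpo5 or at the annotated ends of Tarbp2. Embryoid bodies had a fold enrichment of 5.59 and 5.63 in parental and 4.45 and 5.55 in DKO.

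Dicer1, the RNase that cuts the hairpin, lies at chr12:104687740-104751968 on the minus strand. In ESCs its start site peak (chr12:104751294-104752675) had a signal of 224 and 277 in parental, 497 and 544 in C9, 547 and 610 in H9, and 868 and 1204 in WDR5WT, and was listed in no backbone or S91K-Y191F list. The parental values lay just over the lowest signal deposited in any ESC list, 200, at percentiles 7.54 and 31.4 of their lists. Those of C9 and H9 lay at percentiles 55.5 to 59.6 and those of WDR5WT at 72.2 and 79.5. Parental, p53 knockout and WDR5WT signals did not overlap, and the share of all genes with such an order was not counted. The peaks also differed in width, with 268 and 409 bp in parental, 620 and 626 in C9, 366 and 633 in H9, and 696 and 1034 in WDR5WT. The part of width in the order of signals was not tested. The 8 summits lay at -373 to -228 bp from the start site, and only the 2 of WDR5WT fall inside the printed sequence. In embryoid bodies the peak had a fold enrichment of 4.70 and 4.20 in parental and 5.59 and 4.67 in DKO, at percentiles 71.1 to 94.8. The groups overlapped, and the peak was listed in both DKO lists. The DKO embryoid bodies, like backbone ESCs, lack Wdr5, and their lists hold 78106 and 93646 peaks against 1535 and 2492 in backbone. The part of list length or culture in this difference was not tested.

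**Figure D2:**
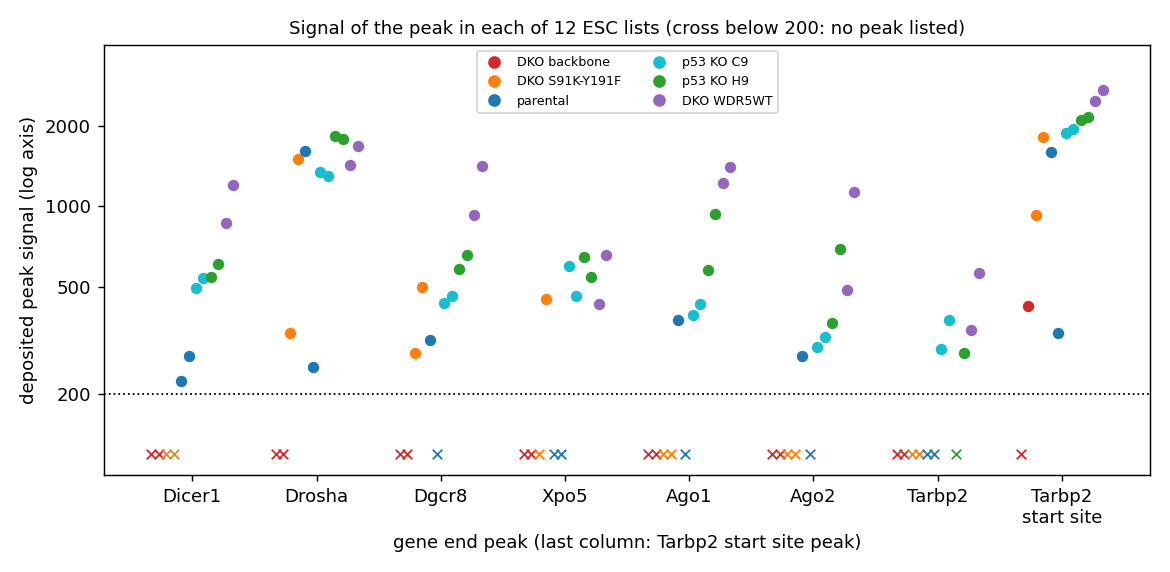
Deposited signal (log axis) of the strongest gene end peak, and of the Tarbp2 start site peak, in each of 12 ESC lists, coloured by group. Crosses under the dotted line at 200, the lowest signal listed, are lists with no peak there. The 2 parental points of Dicer1, 224 and 277, lie close to that line.

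Several short lists enter the WDR5 status pattern. Parental replicate 2 holds end peaks of 2705 genes, and 34 of them (1.26%), Dicer1 included by the choice of the genes, had none in S91K-Y191F replicate 2, a list of 16257 peaks. Against S91K-Y191F replicate 1, a list of about its own length, 738 of the 2705 genes (27.3%) were missing, and in the other direction 901 of 2868 (31.4%). Without parental replicate 2 the pattern of WDR5 status held for Dicer1, Ago1 and Ago2, and for 1144 genes (5.23%) of all. The Dicer1 start peak ranked 3659 by signal in parental replicate 2 and between 6708 and 22530 in the other 7 ESC lists that held it. Limiting every ESC list to its top 1535 peaks, the length of the shortest, therefore removes it from all of them and says nothing about which lists would hold it at equal depth.

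Around the gene, Dicer1 had 10 regions, 6 of them in embryoid bodies alone. A region downstream of the gene (chr12:104676984-104677759, 9981 bp past its end) was listed in the same 11 lists as the Ago1 and Ago2 ends, with a signal of 305 in parental replicate 1, 402 and 261 in C9, 228 and 390 in H9, and 213 and 341 in WDR5WT. These values overlapped between all groups, unlike those at the start site. A region 11.7 kb upstream, at an end of Clmn (chr12:104763677-104764275), was listed in parental replicate 1 (287), both WDR5WT lists (288 and 227) and 3 embryoid body lists. Inside the gene, peaks were listed in embryoid bodies only, at 3 regions held by 1, 3 and 3 lists.

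**Figure D3:**
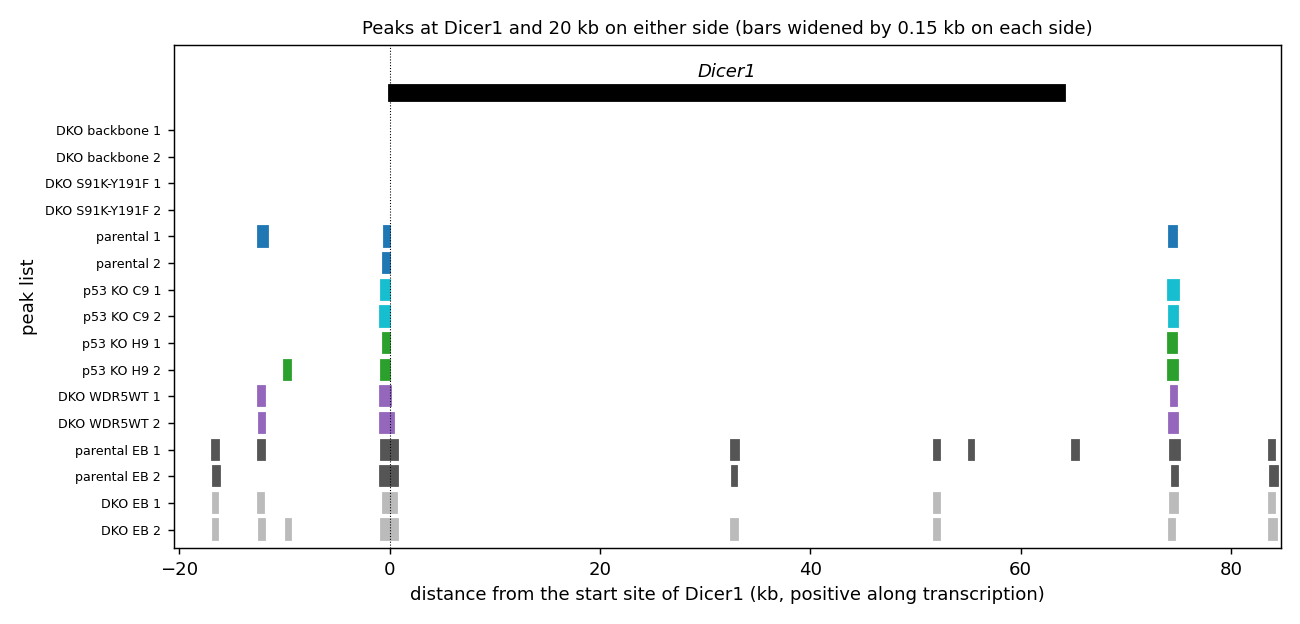
Peaks in each list along Dicer1 and 20 kb on either side, by distance from the start site in kb along transcription. Bars are peaks, widened by 0.15 kb on each side to be visible, and the black bar is the gene. The start site peak is present in the 8 ESC lists with wild-type WDR5 and in all embryoid bodies, and the 4 rows at the top are empty across the whole window.

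Tarbp2, which encodes the DICER1 partner TRBP, lies at chr15:102516077-102523676 on the plus strand. Its RefSeq promoter starts transcription 2115 bp inside that span, so the gene end rule misses its start site peak. At the annotated end (chr15:102516276-102517424) the signal was 294 and 377 in C9, 284 in H9 replicate 2, and 348 and 563 in WDR5WT. At the start site (chr15:102517609-102519158) it was 426 in backbone replicate 2, 932 and 1817 in S91K-Y191F, 1598 and 339 in parental, 1874 and 1948 in C9, 2103 and 2144 in H9, and 2458 and 2722 in WDR5WT. That region was listed in 15 of 16 lists, at percentiles 89.2 to 96.3 in all ESC lists that held it except backbone replicate 2 (58.4) and parental replicate 2 (47.2). It also lies within 1 kb of an end of Map3k12, which overlaps Tarbp2 by 928 bp on the other strand. In embryoid bodies the start site had a fold enrichment of 4.06 and 4.13 in parental and 3.41 and 4.53 in DKO.

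Ago1 and Ago2 encode the Argonautes that hold the mature strand. Ago1 (chr4:126435012-126468707, minus strand) had 1 or 2 peaks per list in its start region (chr4:126467523-126469098). The stronger had a signal of 378 in parental replicate 1, 395 and 432 in C9, 582 and 938 in H9, and 1223 and 1405 in WDR5WT. By this value WDR5WT lay above all other ESC lists without overlap, and the share of all genes that separate in this way was not counted. The peaks were also not alike. The WDR5WT lists and H9 replicate 2 each held 1 peak of 1282 to 1534 bp, where the other ESC lists held 2 narrower ones. The −log10 p deposited with these peaks overlapped, at 4.00 and 4.39 in WDR5WT against 4.35 and 4.26 in H9. Ago2 (chr15:73101625-73184947) had at its upper end (chr15:73184307-73185759) a signal of 279 in parental replicate 1, 300 and 327 in C9, 370 and 696 in H9, and 491 and 1131 in WDR5WT. There WDR5WT and H9 overlapped. Inside Ago1, 2073 bp from the start site, the region chr4:126465630-126466510 was listed in 12 lists, among them S91K-Y191F replicate 2 (319), in which no Ago1 end peak was listed. In embryoid bodies the stronger Ago1 end peak had a fold enrichment of 3.59 and 3.80 in parental and 3.70 and 3.75 in DKO. The Ago2 end peak had 3.22 and 3.31 in parental and 2.70 and 3.10 in DKO. Its DKO values were thus lower without overlap, whereas those of Ago1 overlapped. How many of all genes separate like Ago2 was not counted.

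The flanks of the loci held other regions with partial patterns. In the flank of Tarbp2, chr15:102510159-102511211 was listed in 13 lists, missing from backbone and S91K-Y191F replicate 1, with a signal of 481 in S91K-Y191F replicate 2, 774 and 221 in parental, 895 and 1029 in C9, 610 and 796 in H9, and 832 and 1192 in WDR5WT. Parental replicate 2 was the lowest of these. Past the end of Ago1, chr4:126429022-126430088 was listed in the 11 lists that also held the Ago1 end peak, with a signal of 212 in parental replicate 1 and 444 to 941 in the C9, H9 and WDR5WT lists. In embryoid bodies it was stronger within its lists than the Ago1 start, with a fold enrichment of 6.08 and 5.44 in parental and 5.22 and 5.36 in DKO.

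Near Ago2, the region at the end of Chrac1 (chr15:73090019-73091251) was listed in 12 lists, with a signal of 466 in S91K-Y191F replicate 2, 703 in parental replicate 1 and 1120 to 1742 in the C9, H9 and WDR5WT lists. A region 1165 bp inside the upper end of Ago2 (chr15:73183116-73183782) was listed in 4 ESC lists and no embryoid body list: S91K-Y191F replicate 2 (253), parental replicate 1 (311), C9 replicate 2 (202) and H9 replicate 2 (344). Just beyond that end, chr15:73186559-73187171 was listed in both H9 lists (264 and 281), WDR5WT replicate 2 (304) and all embryoid bodies. The ends of Zdhhc8 near Dgcr8, and of Polr1c, Yipf3 and Lrrc73 near Xpo5, were listed in the 4 embryoid body lists and in no ESC list. Xpo5 thus had 1 region in ESCs, its start, out of 5.

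The members were then counted by group, a gene being called when every list of 1 group and no list of the other had its end peak. The comparisons share lists, and each count is read against the share of all 21887 genes called in the same way. By WDR5 status, 1 member (Dicer1) was called with wild-type WDR5 only, where 15 genes (0.0685%) were called in all. In the other direction 0 members and 0% of genes were called. The first of these is the contrast that selected the genes, and nothing is read from it.

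In backbone ESCs the members were missing along with many other genes. Against the p53 knockout clones, 6 members (all but Tarbp2) were called in p53 knockout only, and so were 34.1% of all genes. In backbone only, 0 members and 0.228% of genes were called. Against parental ESCs, 2 members (Dicer1 and Drosha) were called in parental only beside 7.92% of genes, and 0 in backbone only beside 0.0183%. WDR5WT against backbone called 7 of 7 members in WDR5WT only, where 43.7% of all genes were called, and 0 in backbone only (0.219% of genes). Tarbp2 at its start site is not among the genes open in WDR5WT alone, since backbone replicate 2 held that peak.

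The S91K-Y191F lists stood between backbone and WDR5WT in end peaks, and also in length (5174 and 16257 peaks). The part of length in the counts that follow was not tested. Against backbone, 2 members (Drosha and Dgcr8) were called in S91K-Y191F only, beside 8.32% of all genes, and 0 members and 0% of genes in backbone only. Against WDR5WT, 4 members (Dicer1, Ago1, Ago2 and Tarbp2) were called in WDR5WT only, beside 15.9% of genes, and 0 in S91K-Y191F only, beside 0.366%. With start sites in place of gene ends, a setting chosen after seeing the data in which Ago2 has no entry, 2 remained, Dicer1 and Ago1, beside 15.9% of the genes with a start site, and Tarbp2 was lost. With a window of 2500 bp only Dicer1 remained, beside 16.8% of all genes.

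The ESC groups that all had wild-type WDR5 were compared next. WDR5WT against p53 knockout called 0 members in either direction, where 1.15% of all genes were called in WDR5WT only and 0.119% in p53 knockout only. P53 knockout against parental called 1 member, Xpo5, in p53 knockout only, beside 4.5% of genes, and 0 in parental only, beside 0.356%. Without parental replicate 1 that count was 4 (Dgcr8, Xpo5, Ago1 and Ago2), beside 26.8% of all genes, and without H9 replicate 1 it was 2 (Xpo5 and Tarbp2), beside 4.78%. In embryoid bodies 0 members were called in either direction, where 0.694% of all genes were called in DKO only and 0.818% in parental only, and all 7 genes had an end peak in all 4 lists.

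**Figure D4:**
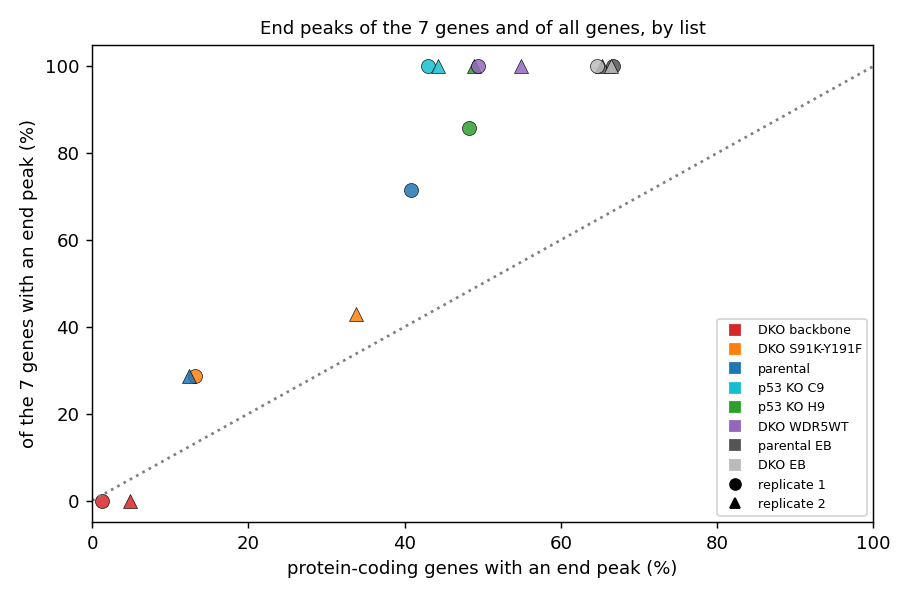
Share of the 7 genes with an end peak (vertical axis, %) against the share of all 21887 protein-coding genes with one (horizontal axis, %), 1 point per list, with colour for group and shape for replicate. The dotted line marks equal shares. Both backbone points are at 0 while 1.25% and 4.91% of all genes had an end peak, and all other points lie above the line.

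A region inside Drosha was listed in backbone ESCs, where the Drosha start site peak was not, and in other lists that held both. The region chr15:12873010-12873423, 48.2 kb from the start site and inside the gene, was listed in both backbone lists (signal 322 and 409), both S91K-Y191F lists (311 and 229) and parental replicate 1 (230), and in no C9, H9, WDR5WT or embryoid body list. It was the only peak of backbone replicate 1 at any of the 7 loci. Between backbone and p53 knockout, 1.81% of the 42133 regions listed in any of those 6 lists were called in backbone only, this one among them. Of the 1160 regions in both backbone lists, 735 (63.4%) were in no C9, H9, WDR5WT or embryoid body list, so regions of this kind are common in backbone. Of all regions, 133 were in all 4 lists without wild-type WDR5, in at most 1 of the 8 with it and in no embryoid body list, and 1 of them was at the 7 loci. All 5 lists that hold it belong to the set with the wider peaks, and the part of that difference was not tested. The region was singled out after its values were seen.

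**Figure D5:**
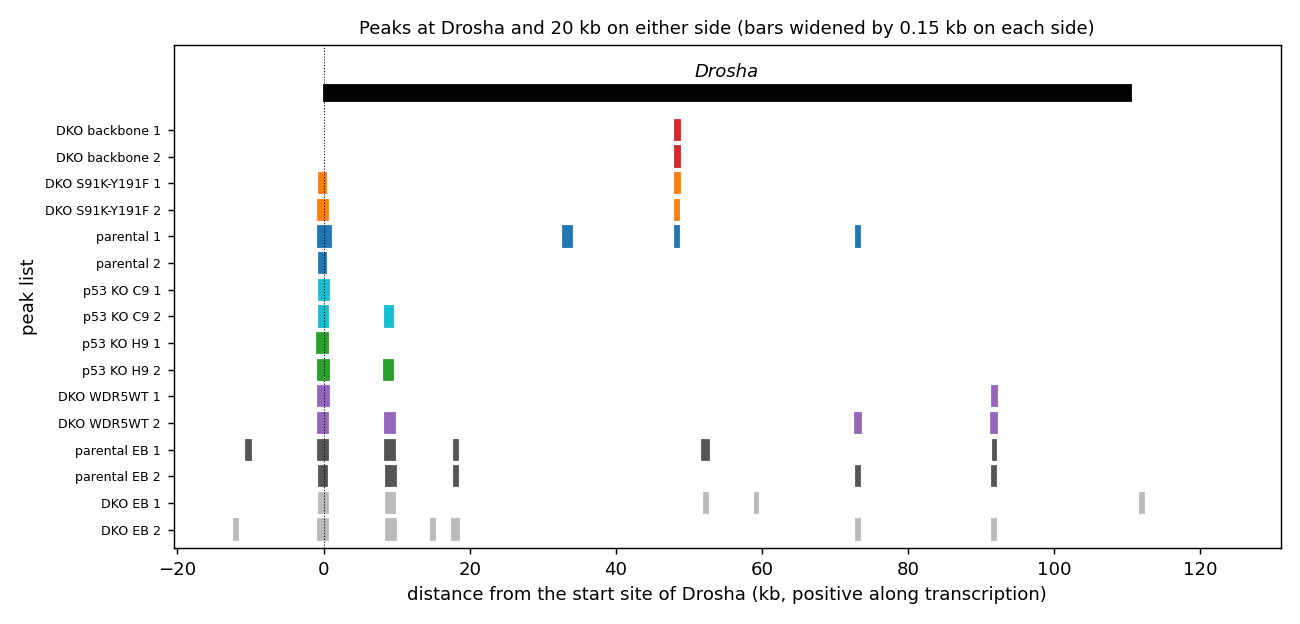
Peaks in each list along Drosha and 20 kb on either side, by distance from the start site in kb. Bars are peaks widened by 0.15 kb on each side, and the black bar is the gene. The start site peak is missing from the 2 backbone lists, and a peak 48.2 kb inside the gene appears in backbone, S91K-Y191F and parental replicate 1 only.

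Across the 7 loci, 28 of 54 regions were in embryoid body lists alone, where 68.0% of all regions in the series were. In all 4 embryoid body lists there were 21 of the 54, against 25.9% of all regions, and 17 were in 1 list only, against 41.7%. No region at these loci was in all 16 lists, as were 197 (0.121%) of all. Of the 26 regions found in any ESC list, 1, the Dicer1 start site, was in every list with wild-type WDR5 and no list without it, where 0.109% of ESC regions were. That peak is the one that chose the genes, so its presence here was given in advance and nothing is read from it. WDR5WT against p53 knockout called 2 of 24 regions in WDR5WT only, beside 3.24% of all regions, and 0 in p53 knockout only, beside 1.85%. These were the Clmn end near Dicer1 and a region of Drosha (chr15:12916381-12916815, signal 403 and 386). In embryoid bodies 1 of 50 regions was called in DKO only, beside 4.71% of all regions, at chr15:102524948-102525423 near the ends of Npff and Atf7 downstream of Tarbp2. In parental only, 1 of 50 was called beside 4.27%, at chr15:73139694-73140879 inside Ago2, with a fold enrichment of 4.57 and 2.87.

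The number of peaks per locus was tested where the contrast was not the one that chose the genes, by a two-sided exact permutation test for each gene with Benjamini-Hochberg adjustment over all genes with a peak. In embryoid bodies Dicer1 had 6 and 8 peaks in DKO and 9 and 5 in parental, and Drosha 5 and 7 against 6 and 6. Ago1 had 4 and 3 in DKO against 5 and 4 in parental, a difference of -1 in the means (exact p = 0.667, adjusted p = 1). All 7 loci overlapped between the groups, with exact p from 0.667 to 1. With 2 lists against 2 the smallest p possible is 0.333, at which 21.7% of the 20085 genes tested stood, and 0 genes passed 0.05 before or after adjustment.

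Between WDR5WT and the p53 knockout clones, Dicer1 had 3 and 3 peaks against 2, 2, 2 and 3, and Drosha 2 and 4 against 1, 2, 1 and 2. All 7 loci overlapped here too (exact p from 0.267 to 1, adjusted p = 1). Between p53 knockout and parental ESCs, Xpo5 had 1 peak in each of 4 lists against 0 and 0, without overlap (exact p = 0.0667, adjusted p = 0.377). The other 6 overlapped, with exact p from 0.267 to 1. In both designs of 4 lists against 2 the exact permutation test cannot go below p = 0.0667, where 6.74% of 17819 and 17.7% of 17657 genes stood, and 0 genes passed 0.05.

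A list of 36 further genes of the pathway, all matched, had fewer end peaks in the shorter lists. They were listed for 2 and 4 of the 36 in backbone, 9 and 21 in S91K-Y191F, 23 and 11 in parental, 23 and 23 in C9, 25 and 26 in H9, 29 and 29 in WDR5WT ESCs, and 32 or 33 in each embryoid body list. By WDR5 status and between embryoid bodies 0 were called. Khsrp, which encodes a factor that binds let-7 precursors, and Hspa8, the chaperone that helps load Argonaute, had an end peak in all 16 lists, backbone included. Ago4 had one only in the 4 embryoid body lists, and Ago3, 3341 bp from Ago1, in none.

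Of the 36, 17 were called in p53 knockout only against backbone, where 34.1% of all genes were called, among them Ddx17, a Microprocessor helicase, Lin28b, which blocks let-7 processing, Mov10, Parn, Prkra, the DICER1 partner PACT, Smad4, Eif6, Gemin4, Hnrnpa1 and Hsp90ab1. WDR5WT only against backbone called 23, beside 43.7% of all genes, with Ddx17, Eif4e2, Eif6, Gemin4, Hnrnpa1, Hsp90ab1, Lin28a, Lin28b, Mov10 and Ncbp1 the first in alphabetical order. Parental only against backbone called 7, beside 7.92% of all genes: Tnrc6b and Tnrc6c, which encode the GW182 proteins that bind Argonaute, Prkra, Tut4, Hnrnpa1, Hsp90ab1 and Tsn. S91K-Y191F only against backbone called 5, beside 8.32%: Tnrc6c, Prkra, Hnrnpa1, Tsn and Xrn2. In WDR5WT only against S91K-Y191F there were 6, beside 15.9%: Tnrc6a, another GW182 gene, Lin28a, Lin28b, Tut7, a terminal uridylyltransferase that acts with LIN28, Eif4e2 and Parn. WDR5WT only against p53 knockout called 2, Tnrc6a and Lin28a, beside 1.15%, and p53 knockout only against parental called 1, Tsnax, beside 4.5%. No gene of the list was called in the other directions.

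By presence in the 16 lists, 14 other genes had exactly the pattern of Dicer1, and 1724 differed from it in 1 list. The 8 with the highest mean percentile of the end peak within the 12 lists that hold it were H2-M3 (82.2), Dab1 (80.3), Adcyap1r1 (79.4), Cpq (78.8), Cdon (77.2), Actr3b (70.5), Prdm6 (69.0) and Hacd2 (69.0), beside 62.2 for Dicer1. All mean percentiles in this paragraph join ranks by signal in ESC lists with ranks by fold enrichment in embryoid body lists, which are unlike measures. No gene of the pathway was among the 14. Of the members, Ago1 and Ago2 were like Dicer1 in 15 of 16 lists, Drosha in 14, and Dgcr8, Xpo5 and Tarbp2 in 13. Mean percentiles of the members' end peaks ran from 83.4 for Drosha through 68.8 for Dgcr8, 67.3 for Xpo5 and 59.8 for Ago1 to 37.8 for Ago2 and 20.5 for Tarbp2.

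The loci also hold microRNA genes. The hairpin genes Mir1306 and Gm24572 lie inside Dgcr8 and Mir693 inside Xpo5, and a peak over any of the 3 was listed in 0 of 16 lists, the nearest region being 4541, 4221 and 16237 bp away. Near the limits of the rule, the farthest gene end peak counted lay 858 bp from Dicer1 in parental embryoid body replicate 1 (fold enrichment 2.64), and the nearest not counted lay 1165 bp inside Ago2 in H9 replicate 2 (signal 344). The farthest locus peaks were 19544 to 19637 bp from Dicer1 in the 4 embryoid body lists, and the nearest left out 22405 to 22731 bp from Xpo5, again in those 4 lists.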

How the data were processed

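ATAC-seq peak lists of mm10 were analysed, 2 per group. The submitters' processing notes name, without the role of each, MACS2 2.1.2 and Genrich 0.6 (peak callers), Bowtie2 2.3.5 (an aligner), SAMtools and DESeq2. The deposited ESC lists give a score, a signal (unstated scaling, never under 200), a −log10 p and a summit. In these lists the score was checked to be 1000 times signal over width, capped at 1000. The deposited embryoid body lists give a score, a ratio (fold enrichment) and −log10 p and −log10 q, and the authors removed blacklisted regions, as the names of these lists say. Each sample has its own list, and which caller made the ESC lists is not given in the sources used here. No counts are given, so depth is unknown and no interval could be computed.

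Peaks off chromosomes 1 to 19, X and Y (33 to 47 per ESC list) were dropped. Genes came from RefSeq, GRCm38.p6, without exons, so "inside" a gene covers exons and introns. Signals and fold enrichments are the authors' values and were used to describe and rank peaks within a list, not to compare ESCs with embryoid bodies. Percentiles are ranks within 1 list. Presence was described without a test. Peak numbers per locus were tested by exact permutation with Benjamini-Hochberg adjustment over all genes with a peak in the lists compared, after the code was tested on simulated data. Python 3.11.15, numpy 2.4.6, pandas 2.3.3 and matplotlib 3.10.9 were used.

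The members, gene lists, comparisons and alternatives were chosen with earlier results of these data known. Named were all members, pathway genes called in a comparison (at most 10, alphabetically), genes with an end within 1 kb of a member's peaks, and the 8 genes most like Dicer1 by list pattern. Alternatives were gene end windows of 500 and 2500 bp, flanks of 10 and 50 kb, equal list length, the upper 50% of each list by p, other merging rules, all but 1 list per group, a replicate block and leaving out each list. Start sites in place of gene ends and the top 5000 peaks were chosen after seeing the data.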

Additional observations from a re-analysis of the deposited data

How the results depend on the processing

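Counts of members called kept within 1.5 times their value in 170 of 190 comparisons with another setting and in 18 of 20 with a setting chosen after seeing the data. Most of these counts were 0 with the main setting, so much of this is 0 staying 0. The number of regions at the 7 loci kept within that limit in 21 of 22. The 3 tests called 0 genes in all 31, which was fixed in advance, since no setting allows a p below 0.0667. With equal list length (1535 peaks in ESCs), the counts of members fell to 0 for WDR5 status (0.119% of all genes), p53 knockout only (2.67%), parental only (0.854%), WDR5WT only (3.52%) and S91K-Y191F only (1.17%) against backbone, WDR5WT only against S91K-Y191F (2.0%), and p53 knockout only against parental (1.13%). For Dicer1 this was fixed by its rank, 3659 at best in an ESC list. With the upper 50% of each list by p they were 0 for WDR5 status (0.0914% of all genes), 2 for p53 knockout only against backbone (22.1%), 1 for parental only (5.14%) and 1 for S91K-Y191F only against backbone (4.77%), and 1 (Tarbp2) for parental only in embryoid bodies (1.58%), and the 54 regions became 26. In p53 knockout only against parental the count stayed 1 there, but the gene changed from Xpo5 to Dicer1 (3.85%). When all but 1 list sufficed, 3 members were called by WDR5 status (21.4% of all genes), 5 for parental only against backbone (39.2%) and 5 for p53 knockout only against parental (32.0%). A gene end window of 2500 bp left 1 in WDR5WT only against S91K-Y191F (16.8%). After seeing the data, start sites gave 2 there. The top 5000 peaks, which leaves the backbone lists whole, gave 0 by WDR5 status, fixed for Dicer1 by its rank in 7 of the 8 lists that held it.

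Leaving out 1 list at a time gave 1 to 3 members by WDR5 status, the 3 without parental replicate 2. It gave 2 to 5 for parental only against backbone, the 5 without parental replicate 2 (35.9% of all genes), and 1 to 4 for p53 knockout only against parental, the 4 without parental replicate 1 (26.8%, against 4.5% with all lists).

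Differences in mean peak number that changed sign, none past the threshold in any setting, were those of Dicer1 between WDR5WT and p53 knockout with a flank of 10 kb (-1 against 0.75), and of Tarbp2 in embryoid bodies (0.5, DKO less parental) with a flank of 50 kb, with the upper 50%, and without parental replicate 2 (each -0.5). With the upper 50%, Ago1 and Ago2 between WDR5WT and p53 knockout moved from -1 and -1.5 to 0.25 and 0.75. Between p53 knockout and parental, Drosha (-1) ranged from -2.5 to 0.5 (the latter without parental replicate 1), and Dicer1 (0.25) from -0.75 to 1.25 (the former without parental replicate 2). Xpo5 in embryoid bodies went from 0.5 to -0.5 without DKO replicate 1. The cause was not tested.

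With replicate number as a block, 0 genes were called in each of the 3 tests, where the smallest p possible is 0.5 for embryoid bodies and 0.111 for the others. Xpo5 between p53 knockout and parental then had exact p = 0.111. The labels do not say that a number marks a shared culture, so the pairing is by number only. Depth is unknown and limits every absence, since a peak not listed is only one that did not pass the callers' threshold.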
